A study of Homo sapiens with 145 samples.

Results

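The 10 genes described here encode chaperones of the endoplasmic reticulum (ER), their cofactors and components of the unfolded protein response: HSPA5, HSP90B1, HYOU1, DNAJB9, DNAJC3, PDIA4, SDF2L1, CRELD2, HERPUD1 and XBP1. They were followed in HT-1080, a human fibrosarcoma cell line, after 24 h of exposure to 3 chemicals. Members were the probe sets (groups of short oligonucleotides on an Affymetrix array) whose platform symbol is 1 of these names, and where a gene had several, the one whose mean across the arrays was highest stood for it. All 10 had a probe set that passed the filter on low values, among 12070 genes tested in all. Etoposide (ETP), a topoisomerase II poison, was given at 0.003, 0.01, 0.03, 0.1, 0.3, 1 and 3 µM. Quercetin (QUE), a plant flavonol, was given at 1, 3, 10, 30, 60, 80 and 100 µM, and methyl methanesulfonate (MMS), an alkylating agent, at 1, 3, 10, 30, 100, 300 and 500 µM. Each chemical had its own vehicle arrays with the solvent DMSO, which the dosed wells received too, at the same final dilution per the labels. No gene was altered by design, and all 24 groups share the same cell line, medium and time.

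Of 145 arrays, 129 were used, and repeated numbers within a group were averaged. This gave 5 replicates in every ETP and QUE group, 6 in every MMS group and 5 at MMS 500 µM. The labels do not say that the numbers stand for separate cultures, so the p-values measure the spread between these samples, which may be technical. In the vehicle arrays, all 8 listed mesenchymal markers had mean log2 signals of at least 4 (VIM, the intermediate filament vimentin, among them), and the list's median was 11.44 for ETP, 11.35 for QUE and 11.15 for MMS. None of 6 epithelial and none of 5 blood cell markers passed the filter on low values, and the endothelial marker that passed, PECAM1, stayed under 4 in each vehicle. Array medians did not overlap between the chemicals, at 3.51 to 3.59 for ETP, 3.33 to 3.41 for QUE and 3.08 to 3.17 for MMS, so levels were not compared across chemicals.

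The ER folds proteins bound for secretion and for membranes. HSPA5 (BiP) binds unfolded chains and uses ATP to release them, HSP90B1 (GRP94) acts on a later set of clients, and HYOU1 exchanges the nucleotide on HSPA5. When unfolded proteins build up, the sensors IRE1 (gene ERN1), PERK (gene EIF2AK3) and ATF6 start the unfolded protein response: IRE1 splices XBP1 mRNA into the form that encodes an active transcription factor, PERK slows translation and favours ATF4, and cleaved ATF6 enters the nucleus. ATF6 and spliced XBP1 bind ER stress elements in the promoters of chaperone genes. Secreting cells such as fibroblasts use this machinery all the time for their matrix proteins.

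The promoters are shown because the elements read by ATF6 and XBP1 can be looked for in them. Whether these elements relate to the members' changes was not tested. The 250 bases before the annotated start of each gene (RefSeq sequences, GRCh38.p14) were searched on both strands for the ER stress element ERSE (CCAAT and CCACG with 9 bases of any kind between them), for ERSE-II (ATTGG and CCACG with 1 base between them), and for the unfolded protein response element UPRE, TGACGTGG. At least 1 of the 3 was found in 7 of the 10 members, against 0.735% of 35116 promoter windows of the same length. Members were counted at the first annotated start site, while the 35116 windows include further start sites of a gene. The further windows of PDIA4 and XBP1 held no match. The members were chosen as genes of the unfolded protein response and its chaperones. A share above that of all windows is therefore not a result of these data. ERSE was present in 4 members (HSPA5, HSP90B1, XBP1 and CRELD2) and in 0.074% of all windows. ERSE-II was present in 3 members (HYOU1, SDF2L1 and HERPUD1) and in 0.0513% of all windows, and UPRE in 1 member (HYOU1, overlapping an ERSE-II match) and in 0.612%. DNAJB9, PDIA4 and DNAJC3 held no full match to any of these elements in this window, though parts such as CCAAT and CCACG occur in that of DNAJB9. In the sequences below, 5′ to 3′ on the gene's strand, capitals mark the matches, and XBP1 is shown at the first of its annotated start sites.
HSPA5, chr9:125241344-125241593, minus strand: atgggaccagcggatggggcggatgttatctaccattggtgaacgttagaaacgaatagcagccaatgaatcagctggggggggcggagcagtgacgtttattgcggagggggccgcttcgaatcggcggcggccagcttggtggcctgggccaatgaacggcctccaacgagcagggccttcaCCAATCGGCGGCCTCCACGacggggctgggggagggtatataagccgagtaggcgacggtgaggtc
HSP90B1, chr12:103930160-103930409, plus strand: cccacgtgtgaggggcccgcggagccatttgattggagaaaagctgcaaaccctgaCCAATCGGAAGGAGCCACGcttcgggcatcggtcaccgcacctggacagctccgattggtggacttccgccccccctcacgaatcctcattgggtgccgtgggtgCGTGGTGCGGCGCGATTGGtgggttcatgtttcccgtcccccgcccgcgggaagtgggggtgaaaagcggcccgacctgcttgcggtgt
HYOU1, chr11:119057206-119057455, minus strand: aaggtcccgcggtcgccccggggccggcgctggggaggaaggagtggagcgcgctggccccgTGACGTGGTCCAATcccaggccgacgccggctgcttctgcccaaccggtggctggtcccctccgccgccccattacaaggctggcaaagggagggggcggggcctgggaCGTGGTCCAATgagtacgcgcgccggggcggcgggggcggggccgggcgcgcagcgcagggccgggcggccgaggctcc
DNAJB9, chr7:108569624-108569873, plus strand: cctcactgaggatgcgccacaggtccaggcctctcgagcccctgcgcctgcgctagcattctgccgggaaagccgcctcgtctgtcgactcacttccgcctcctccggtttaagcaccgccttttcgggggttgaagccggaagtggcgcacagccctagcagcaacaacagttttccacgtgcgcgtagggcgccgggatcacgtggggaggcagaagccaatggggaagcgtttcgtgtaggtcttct
HERPUD1, chr16:56931892-56932141, plus strand: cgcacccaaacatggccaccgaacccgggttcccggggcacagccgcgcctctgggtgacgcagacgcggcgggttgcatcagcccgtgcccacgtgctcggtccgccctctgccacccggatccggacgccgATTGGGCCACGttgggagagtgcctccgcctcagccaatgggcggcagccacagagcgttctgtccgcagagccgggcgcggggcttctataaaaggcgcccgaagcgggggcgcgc
XBP1, chr22:28800570-28800819, minus strand: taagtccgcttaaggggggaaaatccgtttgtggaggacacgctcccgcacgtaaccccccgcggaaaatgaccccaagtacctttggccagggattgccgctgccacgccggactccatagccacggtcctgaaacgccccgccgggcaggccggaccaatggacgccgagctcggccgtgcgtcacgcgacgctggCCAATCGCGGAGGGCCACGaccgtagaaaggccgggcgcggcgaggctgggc
The ERSE match lay at bases -66 to -48 from the start in HSPA5 and at -52 to -34 in XBP1. HSP90B1 held a match at -194 to -176 and another on the opposite strand at -89 to -71. The ERSE-II matches of HYOU1 lay at -185 to -175 and -79 to -69, that of HERPUD1 at -117 to -107 and that of SDF2L1 at -188 to -178, and CRELD2 held its ERSE at -80 to -62. A match is a description of these letters, and factor binding was not measured.

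The arrays titled number 2 in the ETP and QUE experiments did not follow their labels and were left out. Each array's difference from the same-numbered vehicle was correlated across genes with the mean response of the other numbers to ETP 3 µM and to QUE 100 µM. For the library labelled ETP 3 µM number 2, r was 0.304 against the ETP response and 0.902 against the QUE response. For the library labelled QUE 100 µM number 2, r was 0.890 against the ETP response and 0.387 against the QUE response. The other arrays at these doses correlated with their own chemical's response at 0.797 to 0.904 (ETP) and 0.546 to 0.926 (QUE). The 0.546 was QUE 100 µM replicate 3, which was kept, and the next lowest QUE value was 0.731. With the other chemical's response the same arrays correlated at 0.334 to 0.434. XBP1 showed the same split. Its log2 signal was 10.23 in the library labelled ETP 3 µM number 2, against 8.43 to 8.81 in the other ETP 3 µM arrays and 8.94 to 9.46 in ETP DMSO. It was 8.52 in the library labelled QUE 100 µM number 2, against 9.83 to 10.44 in the other QUE 100 µM arrays and 8.88 to 9.15 in QUE DMSO. DNAJB9 stood at 10.85 in the library labelled ETP 3 µM number 2, above the 9.30 to 9.82 of the other arrays of that dose. For the members' calls, and for the named pathway genes at the highest doses, values that include these 16 arrays are given too.

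**Figure D1:**
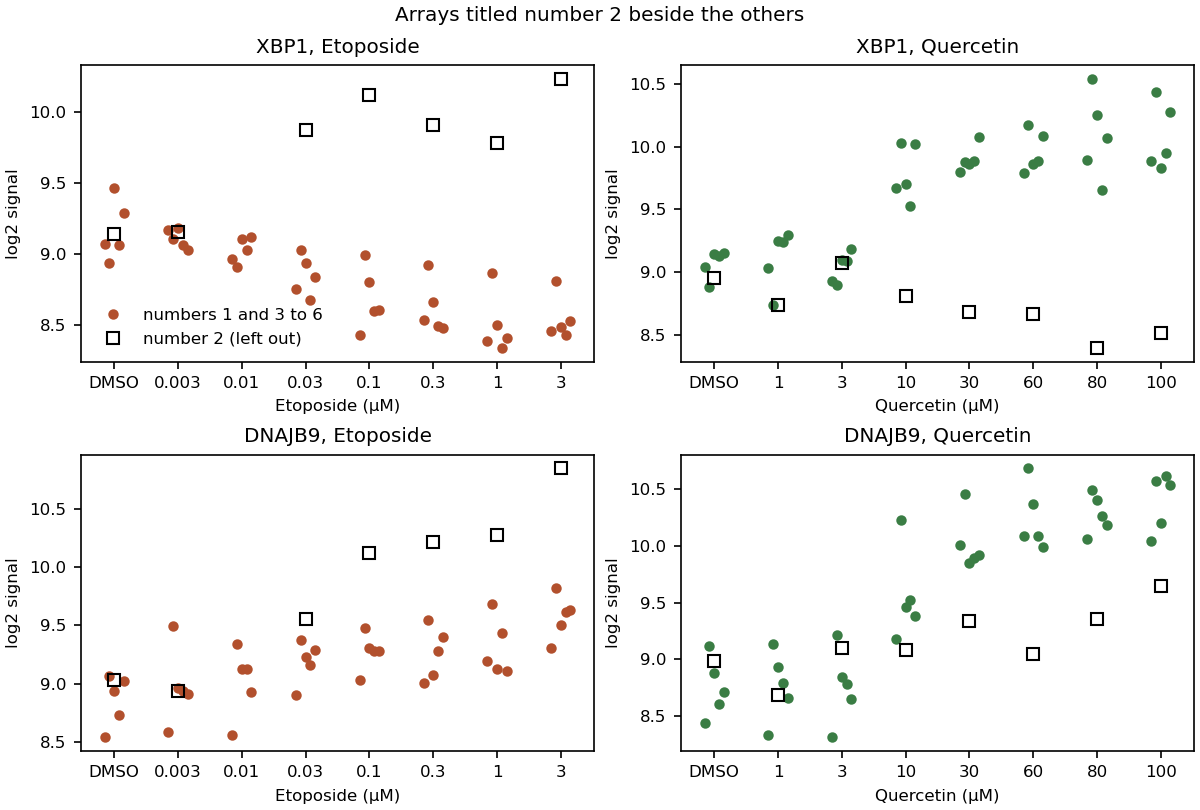
Log2 signal of XBP1 (top) and DNAJB9 (bottom) in each array, with dose in µM on the horizontal axis and DMSO at its low end, for etoposide (left) and quercetin (right). Filled points are numbers 1 and 3 to 6, and open squares are the number 2 arrays, which for XBP1 lie above the other etoposide arrays from 0.03 µM and below the other quercetin arrays from 10 µM, at 10.23 and 8.52 at the highest doses.

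Calls required 2 things in limma: an adjusted p (Benjamini-Hochberg, over all genes tested) under 0.05, and a change of at least 1.5-fold against the vehicle of the same chemical. Differences are given on the log2 scale with their standard error (SE).

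Under quercetin, the transcription factor XBP1 and the co-chaperones DNAJB9 and DNAJC3 rose at 1 dose or more. So did the nucleotide exchange factor HYOU1 and SDF2L1. Shares of all genes are given below for each dose, not over the doses together. In the probe sets used, neither of the abundant chaperones HSPA5 and HSP90B1 was called at any quercetin dose. Their other probe sets are not described for quercetin. The probe sets used were among the brightest in QUE DMSO, with means of 12.34 and 12.37 where the highest of all genes was 13.62. Whether so high a signal hides a rise was not tested. Higher calls numbered 3 members at 10 µM, where 1.11% of all genes were called higher, then 4 members at both 30 µM (8.4%) and 60 µM (12.7%), and 3 members at both 80 µM (11.4%) and 100 µM (13.1%). Genes called in either direction made up 1.78% (10 µM), 17.0% (30 µM), 25.4% (60 µM), 24.5% (80 µM) and 27.6% (100 µM) of all genes. No member was called lower against DMSO, where the share of all genes called lower was 0.671% (10 µM), 8.64% (30 µM), 12.7% (60 µM), 13.1% (80 µM) and 14.5% (100 µM). None was called at 1 µM (0.0331% of all genes changed, 0.00829% higher and 0.0249% lower) or 3 µM (0.0911% changed, 0.0249% higher and 0.0663% lower). The members' median change was 0.458 at 10 µM and 0.465 at 100 µM, against 0.005 and 0.002 over all genes.

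**Figure D2:**
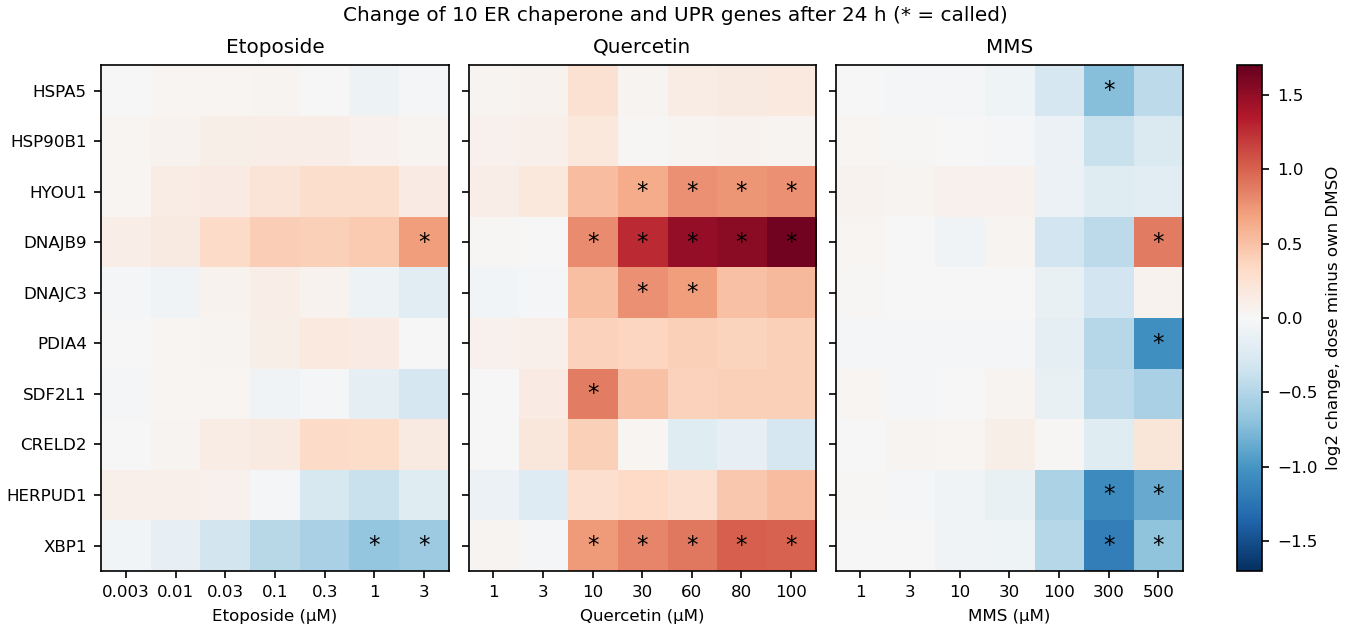
Log2 change against own DMSO (colour, red higher and blue lower) of the 10 genes, grouped by role from top to bottom, at 7 doses in µM of etoposide, quercetin and MMS, low to high. A star marks a called change: under quercetin these run from 10 µM in DNAJB9 and XBP1, and under MMS they are lower values at 300 and 500 µM except DNAJB9 at 500 µM (0.89).

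DNAJB9 (ERdj4) is a J-domain cofactor that feeds misfolded clients to HSPA5 and represses IRE1. Its log2 signals were 9.18, 10.22, 9.46, 9.52 and 9.39 in the QUE 10 µM arrays and 10.04, 10.57, 10.20, 10.61 and 10.54 in the QUE 100 µM arrays. In QUE DMSO they were 8.44, 9.11, 8.88, 8.61 and 8.71, below every array of both doses. The rise was 0.80 ± 0.17 at 10 µM (SE, adjusted p = 0.00455), 1.27 ± 0.17 at 30 µM (adjusted p = 7.25e-07) and 1.49 ± 0.17 at 60 µM (adjusted p = 1.55e-08). It reached 1.53 ± 0.17 at 80 µM (adjusted p = 1.11e-08) and 1.64 ± 0.17 at 100 µM, which is 3.12-fold (adjusted p = 1.98e-09). This was the largest of the members' changes at 100 µM. The other probe sets of DNAJB9 changed by 1.86 and 2.32 at 100 µM. With number 2 included the change was 1.12 (30 µM), 1.25 (60 µM), 1.34 (80 µM) and 1.48 (100 µM), each still called, while that at 10 µM was 0.69 and was not (adjusted p = 0.174).

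XBP1 encodes the transcription factor downstream of IRE1, and its probe set was not used to tell the spliced from the unspliced form. The signals were 9.67, 10.03, 9.71, 9.53 and 10.02 at QUE 10 µM, 9.80, 9.88, 9.87, 9.89 and 10.08 at QUE 30 µM, and 9.88, 10.44, 9.83, 9.95 and 10.28 at QUE 100 µM. In QUE DMSO they were 9.04, 8.88, 9.14, 9.13 and 9.15. All dosed arrays from 10 µM on lay above all vehicle arrays, and the groups did not overlap. The rise was 0.72 ± 0.13 at 10 µM (adjusted p = 6.03e-04), 0.84 ± 0.13 at 30 µM (adjusted p = 5.85e-06) and 0.89 ± 0.13 at 60 µM (adjusted p = 9.42e-07). It was 1.02 ± 0.13 at 80 µM (adjusted p = 1.03e-07) and 1.01 ± 0.13 at 100 µM, or 2.01-fold (adjusted p = 9.55e-08). With number 2 included XBP1 changed by 0.70 at 60 µM (adjusted p = 0.0383), 0.75 at 80 µM (adjusted p = 0.0244) and 0.77 at 100 µM (adjusted p = 0.0195) and stayed called, but it was not called at 10 µM (0.58, adjusted p = 0.532) or 30 µM (0.65, adjusted p = 0.0717).

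HYOU1 (ORP150) is the large HSP70-like exchange factor of HSPA5. Its signals were 9.01, 8.80, 9.08, 8.72 and 8.65 at QUE 100 µM and 8.81, 8.79, 8.87, 8.54 and 8.47 at QUE 30 µM, against 8.03, 8.28, 8.15, 7.93 and 7.96 in QUE DMSO. Every dosed array was above every vehicle array. HYOU1 rose by 0.63 ± 0.12 at 30 µM (adjusted p = 7.34e-05), 0.78 ± 0.12 at 60 µM (adjusted p = 1.40e-06), 0.76 ± 0.12 at 80 µM (adjusted p = 2.75e-06) and 0.78 ± 0.12 at 100 µM (adjusted p = 1.22e-06). At 10 µM the change was 0.53 ± 0.12 (adjusted p = 0.00527), short of 1.5-fold. With number 2 included HYOU1 changed by 0.65 at 60 µM, 0.64 at 80 µM and 0.65 at 100 µM, each called, and by 0.53 at 30 µM, not called. Without QUE 30 µM replicate 4 the change at that dose was 0.58 and fell under 1.5-fold.

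DNAJC3 (p58IPK) is a J-domain cofactor of HSPA5 that also inhibits PERK. It had 9.94, 9.83, 9.57, 9.71 and 9.70 at QUE 30 µM and 9.98, 9.40, 9.70, 9.63 and 9.67 at QUE 60 µM, against 9.13, 9.10, 8.70, 8.98 and 8.94 in QUE DMSO, with no overlap. The rise was 0.78 ± 0.16 at 30 µM (adjusted p = 1.69e-04) and 0.71 ± 0.16 at 60 µM (adjusted p = 3.23e-04). The number 2 arrays, when included, left DNAJC3 called at both doses (0.68 at 30 µM, 0.61 at 60 µM). At 100 µM the arrays had 9.92, 8.84, 9.70, 9.50 and 9.62, of which replicate 3 (8.84) lay within the vehicle range. The change there was 0.55 ± 0.16 (adjusted p = 0.00387), under 1.5-fold, and 0.72 without that replicate. A second DNAJC3 probe set changed by 1.49 at 100 µM and the others by 0.69 and 0.68.

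SDF2L1, a partner of the DNAJB11 chaperone complex, was called at 10 µM. Its signals were 8.16, 8.17, 8.34, 8.32 and 8.37 at QUE 10 µM, against 7.67, 7.58, 7.01, 7.30 and 7.47 in QUE DMSO, without overlap. The rise was 0.86 ± 0.17 (1.82-fold, adjusted p = 0.00188). At 100 µM its signals were 7.76, 8.32, 7.92, 7.62 and 7.46 and overlapped the vehicle, and the change was 0.41 ± 0.17 (adjusted p = 0.0480, under 1.5-fold). With number 2 included the change at 10 µM was 0.68 and was not called (adjusted p = 0.197).

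HSPA5 had 12.21, 12.73, 12.57, 12.53 and 12.49 at QUE 100 µM, against 12.31, 12.48, 12.21, 12.35 and 12.36 in QUE DMSO. The ranges overlapped, and the difference was 0.17 ± 0.10 (95% interval -0.02 to 0.35, adjusted p = 0.153). HSP90B1 averaged 12.42 ± 0.09 at QUE 100 µM and 12.37 ± 0.07 in QUE DMSO (SD, n = 5 each), a difference of 0.05 ± 0.06 (95% interval -0.07 to 0.17, adjusted p = 0.521 in limma). At 10 µM every array of HSPA5 and HSP90B1 was above its vehicle arrays, by 0.25 ± 0.10 (adjusted p = 0.147) and 0.18 ± 0.06 (adjusted p = 0.101) on average, and neither difference passed the test. Both carry an ERSE in the promoters printed above, as does XBP1, and any relation to their changes was not tested.

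PDIA4 (ERp72), a disulfide isomerase, had 11.14, 11.07, 11.24, 10.99 and 10.98 at QUE 100 µM, against 10.55, 10.73, 10.78, 10.69 and 10.68 in QUE DMSO. All dosed arrays were higher, but the difference of 0.40 ± 0.07 (adjusted p = 1.18e-05) was 1.32-fold and not called. HERPUD1, a membrane protein of ER-associated degradation, had 9.82, 11.09, 9.69, 9.76 and 9.82 at QUE 100 µM, against 9.40, 9.28, 9.80, 9.49 and 9.59 in QUE DMSO. Its difference of 0.52 ± 0.20 (adjusted p = 0.0278) was under 1.5-fold and was 0.26 without replicate 3, the array at 11.09. CRELD2, a secreted disulfide isomerase of the ER, had 10.03, 9.80, 9.23, 9.05 and 8.93 at QUE 100 µM, against 9.72, 9.84, 9.54, 9.63 and 9.71 in QUE DMSO, and the mean differed by -0.28 ± 0.17 (adjusted p = 0.158).

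**Figure D3:**
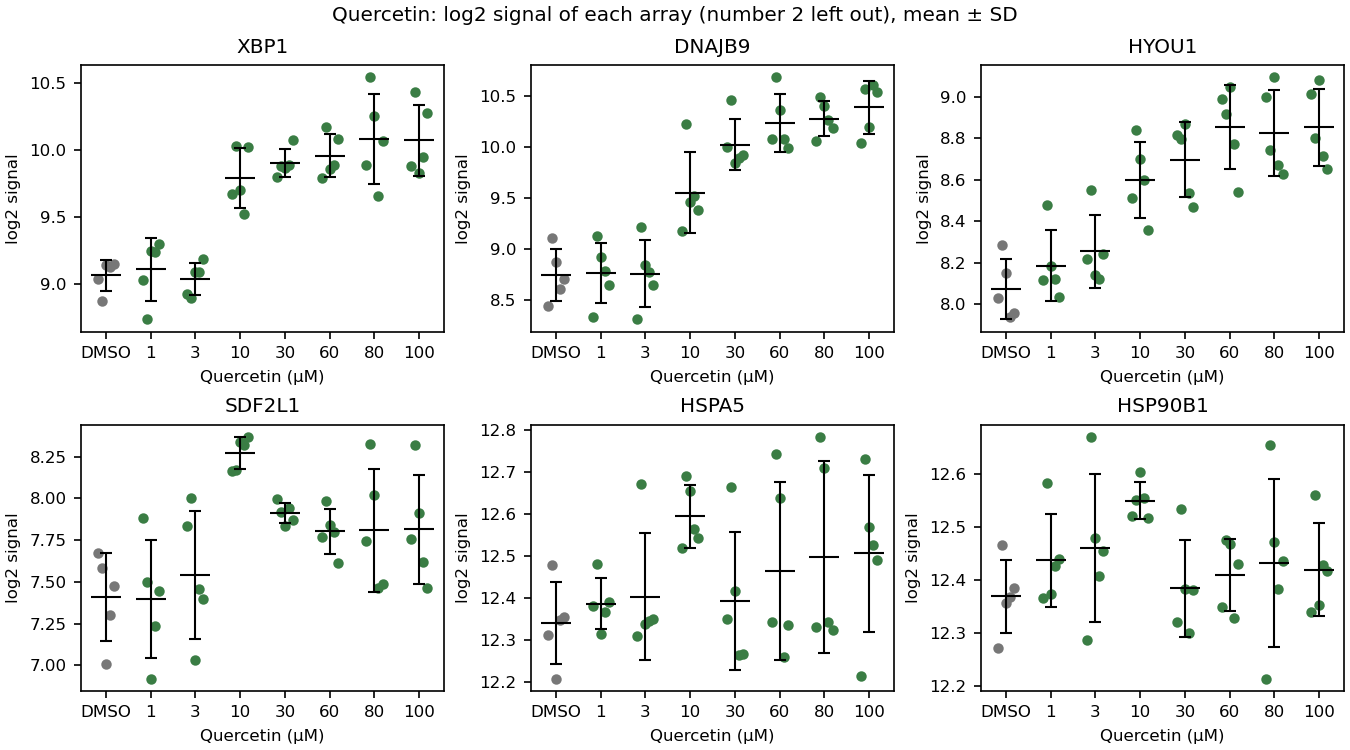
Log2 signal per array of XBP1, DNAJB9, HYOU1, SDF2L1, HSPA5 and HSP90B1 by quercetin dose in µM, with DMSO (grey) at the low end and number 2 left out, n = 5 per group; bars are the mean ± SD. The means of DNAJB9 and XBP1 are 10.39 and 10.07 at 100 µM, against 8.75 and 9.07 in DMSO; SDF2L1 has its highest mean at 10 µM (8.27), and the ranges of HSPA5 and HSP90B1 overlap DMSO at 30 µM and above.

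The shapes over the dose differed between members. Between 100 and 10 µM of quercetin, a comparison added after the data were seen, DNAJB9 was higher by 0.84 ± 0.17 at 100 µM (adjusted p = 2.54e-04; 8.73% of all genes called higher). CRELD2 was lower by 0.68 on the log2 scale at 100 µM than at 10 µM (SE 0.17, adjusted p = 0.00121; 11.9% called lower): its signals fell to 8.93 to 10.03 at QUE 100 µM, against 9.98 to 10.19 at QUE 10 µM. Without QUE 100 µM replicate 6 the CRELD2 difference was -0.56, and with number 2 included it was -0.53, both short of 1.5-fold. Between 100 and 30 µM no member was called, where 3.92% of all genes were called (1.37% higher and 2.55% lower), and the 10 differences ran from -0.32 (CRELD2) to 0.37 (DNAJB9). At an adjusted p under 0.05 with no limit on the fold that count was also 0.

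Under MMS, members fell at 300 and 500 µM, and DNAJB9 rose at 500 µM. At 1 to 30 µM the members' differences from MMS DMSO ran from -0.13 (HERPUD1) to 0.10 (CRELD2), and 0.0% of all genes were called. At 100 µM no member was called (1.61% of all genes changed). At 300 µM, 3 members were lower (HSPA5, HERPUD1 and XBP1; 7.75% of all genes called lower) and none was higher (4.46%), and all 10 differences were below 0. At 500 µM, 3 members were lower (PDIA4, HERPUD1 and XBP1; 16.9%) and 1 was higher (DNAJB9; 17.7%). The members' median change was -0.445 at 300 µM and -0.344 at 500 µM, against 0.026 and 0.054 over all genes. A lower value in bulk RNA does not tell fewer cells with the RNA from less RNA per cell.

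HSPA5 ranged from 11.11 to 11.41 with a median of 11.17 at MMS 300 µM, against 11.75 to 12.09 with a median of 11.93 in MMS DMSO (n = 6 each). The groups did not overlap, and HSPA5 fell by 0.72 on the log2 scale (SE 0.07, 1.65-fold lower, adjusted p = 6.01e-11 in limma). At 500 µM it had 11.51, 11.13, 11.52, 11.87 and 11.43, of which 11.87 lay within the vehicle range, and the difference was -0.44 ± 0.07 (adjusted p = 1.90e-06), under 1.5-fold. At 100 µM the difference was -0.29 ± 0.07 (adjusted p = 0.0117), also under 1.5-fold. Its second probe set changed by -0.78 at 300 µM and -0.11 at 500 µM.

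XBP1 ranged from 7.03 to 7.93 with a median of 7.54 at MMS 300 µM, against 8.11 to 9.15 with a median of 8.77 in MMS DMSO, without overlap. It fell by 1.18 on the log2 scale (SE 0.18, adjusted p = 1.56e-06 in limma). At 500 µM it had 7.72, 7.62, 8.35, 8.46 and 8.07, overlapping the lowest vehicle array, and fell by 0.69 (SE 0.19, adjusted p = 0.00193). Without MMS 500 µM replicate 3 that difference was -0.58 and no longer reached 1.5-fold.

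HERPUD1 ranged from 7.59 to 7.88 with a median of 7.79 at MMS 300 µM, and had 8.17, 7.85, 8.00, 7.85 and 8.00 at 500 µM. In MMS DMSO it ranged from 8.61 to 9.02 with a median of 8.84, above every array of both doses. It fell by 1.08 at 300 µM (SE 0.10, 2.11-fold lower, adjusted p = 2.97e-11 in limma) and by 0.86 at 500 µM (SE 0.11, adjusted p = 3.42e-09). At 100 µM the difference was -0.53 ± 0.10 (adjusted p = 8.17e-04), under 1.5-fold.

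PDIA4 ranged from 8.98 to 9.34 with a median of 9.18 at MMS 500 µM and from 9.62 to 9.88 at 300 µM, against 9.97 to 10.43 with a median of 10.21 in MMS DMSO. Neither dose overlapped the vehicle. PDIA4 fell by 1.04 at 500 µM (SE 0.09, 2.05-fold lower, adjusted p = 6.65e-14 in limma), and at 300 µM it differed by -0.49 ± 0.08 (adjusted p = 8.60e-06, under 1.5-fold). Its other probe set changed by -0.82 at 500 µM.

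DNAJB9 had 9.16, 8.50, 9.11, 9.17 and 9.06 at MMS 500 µM, against a range of 7.92 to 8.29 with a median of 8.11 in MMS DMSO. All 5 dosed arrays were higher, replicate 3 (8.50) least, and the rise was 0.89 ± 0.13 (1.85-fold, adjusted p = 5.98e-08 in limma). At 300 µM it ranged from 7.34 to 8.27, overlapping the vehicle, with a difference of -0.45 ± 0.12 (adjusted p = 0.00282, under 1.5-fold). Between the doses DNAJB9 was higher by 1.34 ± 0.13 at 500 µM than at 300 µM (2.53-fold, adjusted p = 1.33e-11), without overlap. It was the single member called in that comparison, where 8.17% of all genes were called higher and 10.5% lower. Its other probe sets changed by 0.90 and 1.499 at 500 µM against DMSO.

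HSP90B1 differed by -0.38 ± 0.06 at 300 µM (adjusted p = 4.78e-06) and by -0.25 ± 0.07 at 500 µM (adjusted p = 0.00111), both under 1.5-fold. Its probe sets disagreed at 500 µM: the other 3 changed by -0.82, -0.81 and -1.22, so the size for this gene depends on the probe set read. SDF2L1 differed by -0.55 ± 0.19 at 500 µM (adjusted p = 0.0129), and by -0.71 without MMS DMSO replicate 5, a vehicle array at 6.11 whose nearest neighbour stood at 6.96. It passed both limits in 3 of the 11 refits that leave out a replicate at that dose. HYOU1 (-0.17 ± 0.10), DNAJC3 (0.06 ± 0.11) and CRELD2 (0.21 ± 0.09) had adjusted p-values of 0.141, 0.658 and 0.0532 at 500 µM.

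**Figure D4:**
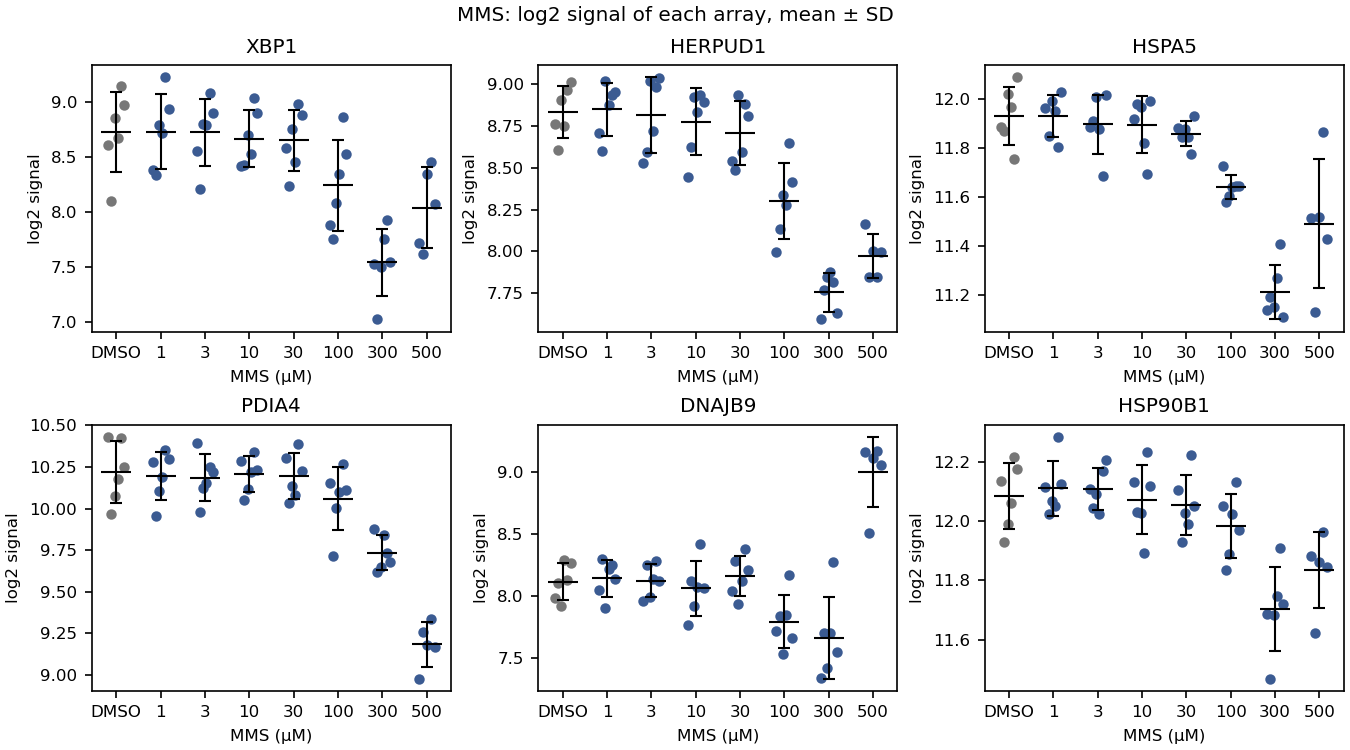
Log2 signal per array of XBP1, HERPUD1, HSPA5, PDIA4, DNAJB9 and HSP90B1 by MMS dose in µM, with DMSO (grey) at the low end; bars are the mean ± SD, n = 6 (5 at 500 µM). The means at 300 and 500 µM are 7.55 and 8.04 for XBP1 against 8.73 in DMSO, PDIA4 stands at 9.18 at 500 µM against 10.22, and DNAJB9 stands at 7.66 at 300 µM and at 9.00 at 500 µM against 8.11.

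Under etoposide, XBP1 fell and DNAJB9 rose, each at the highest doses, and the other 8 members were called at no dose. Calls numbered 1 lower at 1 µM (3.73% of all genes called lower), and 1 lower (6.92%) and 1 higher (6.25%) at 3 µM. Genes called in either direction made up 8.9% of all genes at 1 µM, with 5.17% higher, and 13.2% at 3 µM. At 0.003 to 0.3 µM no member was called. Of all genes, 0.0% were called at 0.003 and 0.01 µM, 0.63% at 0.03 µM, 3.74% at 0.1 µM (1.38% higher and 2.36% lower) and 4.56% at 0.3 µM (3.02% higher and 1.53% lower). XBP1 had 8.38, 8.87, 8.50, 8.34 and 8.41 at ETP 1 µM and 8.46, 8.81, 8.49, 8.43 and 8.53 at ETP 3 µM, against 9.07, 8.94, 9.46, 9.06 and 9.29 in ETP DMSO. All dosed arrays were below all vehicle arrays. XBP1 fell by 0.66 at 1 µM (SE 0.10, adjusted p = 5.70e-06 in limma) and by 0.62 at 3 µM (SE 0.10, adjusted p = 9.19e-06). The lower doses of 0.1 and 0.3 µM had differences of -0.48 and -0.54 (adjusted p = 0.00159 for 0.1 µM, 2.10e-04 for 0.3 µM), short of 1.5-fold. Without ETP DMSO replicate 4 the difference at 3 µM was -0.55, under 1.5-fold. XBP1 lost both calls once the number 2 arrays were included (-0.45 and adjusted p = 0.232 for 1 µM, -0.34 and 0.347 for 3 µM).

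DNAJB9 had 9.30, 9.82, 9.50, 9.62 and 9.63 at ETP 3 µM, against 8.54, 9.07, 8.94, 8.73 and 9.02 in ETP DMSO, without overlap. It rose by 0.71 ± 0.14 (1.64-fold, adjusted p = 1.11e-04 in limma), and by 0.90 with number 2 included (adjusted p = 7.33e-04). At 0.1, 0.3 and 1 µM its differences were 0.42, 0.40 and 0.45, with adjusted p-values of 0.0458, 0.0416 and 0.0144, under 1.5-fold. HSPA5 (-0.03 ± 0.05, 95% interval -0.13 to 0.07), HSP90B1 (0.05 ± 0.05, -0.05 to 0.15) and PDIA4 (0.00 ± 0.05, -0.11 to 0.10) had the narrowest intervals at 3 µM, all within 1.5-fold of the vehicle. These intervals hold for the probe sets used. SDF2L1 had the widest, with a difference of -0.29 ± 0.18 (-0.65 to 0.07, adjusted p = 0.213). Between 3 and 0.3 µM no member was called, where 3.67% of all genes were (1.17% higher and 2.5% lower), and at an adjusted p under 0.05 with no limit on the fold 1 member passed (PDIA4, -0.18, adjusted p = 0.0257 in limma).

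The responses to the highest doses were compared between chemicals in 1 fit of all groups, as the change under the chemical named first minus the change under the other. The doses differ (3, 100 and 500 µM), so the differences hold for these doses. For ETP 3 µM minus QUE 100 µM, 6 members were lower (10.7% of all genes called lower) and 0 were higher (12.8%). XBP1 changed by -0.62 under ETP and by 1.01 under QUE, a difference of -1.63 ± 0.22 (adjusted p = 3.42e-09 in limma). DNAJB9, higher under both, differed by -0.93 ± 0.22 (adjusted p = 3.30e-04), DNAJC3 by -0.73 ± 0.18 (adjusted p = 8.74e-04) and HYOU1 by -0.64 ± 0.17 (adjusted p = 0.00176). HERPUD1 differed by -0.73 ± 0.21 (adjusted p = 0.00323), or -0.47 and under 1.5-fold without QUE 100 µM replicate 3. SDF2L1 differed by -0.70 ± 0.27 (adjusted p = 0.0366) and kept both limits in 12 of 20 refits that leave out a replicate. HYOU1 kept them in 18 of 20. Inclusion of the number 2 arrays left 0 members called in this comparison, with XBP1 at -1.10 (adjusted p = 0.101), and 0.00829% of all genes were called.

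For MMS 500 µM minus QUE 100 µM, 7 members were lower (13.7% of all genes) and 0 higher (14.5%). XBP1 differed by -1.69 ± 0.22 (adjusted p = 1.70e-10 in limma), PDIA4 by -1.44 ± 0.10 (adjusted p = 6.91e-23) and HERPUD1 by -1.39 ± 0.20 (adjusted p = 1.03e-08). HYOU1 (-0.96 ± 0.17, adjusted p = 1.16e-06), SDF2L1 (-0.96 ± 0.27, adjusted p = 0.00200) and DNAJB9 (-0.75 ± 0.21, adjusted p = 0.00232) were lower too. HSPA5 differed by -0.60 ± 0.11 (adjusted p = 1.98e-06) and fell under 1.5-fold in 4 of 21 refits without a replicate. Inclusion of the number 2 arrays left 5 members called, where 12.2% of all genes were lower and 12.5% higher, and HSPA5 (-0.58) and DNAJB9 (-0.59) were not called. For ETP 3 µM minus MMS 500 µM, 2 members were higher (15.6% of all genes) and 0 lower (14.9%): PDIA4 by 1.03 ± 0.10 (adjusted p = 4.75e-15) and HERPUD1 by 0.66 ± 0.20 (adjusted p = 0.00527). HERPUD1 was 0.58, under 1.5-fold, without ETP DMSO replicate 3. Both genes stayed called when the number 2 arrays were included (PDIA4 1.08, HERPUD1 0.74), where 13.1% of all genes were called higher. XBP1 fell under both chemicals and differed by 0.06 ± 0.22 between them (95% interval -0.37 to 0.49, adjusted p = 0.836). DNAJB9 rose under both and differed by -0.17 ± 0.21 (95% interval -0.59 to 0.24, adjusted p = 0.534). Its probe sets disagreed there, at -0.12 and -0.85 (adjusted p = 0.738 and 0.0117) for the other 2. These comparisons share the arrays of each chemical.

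**Figure D5:**
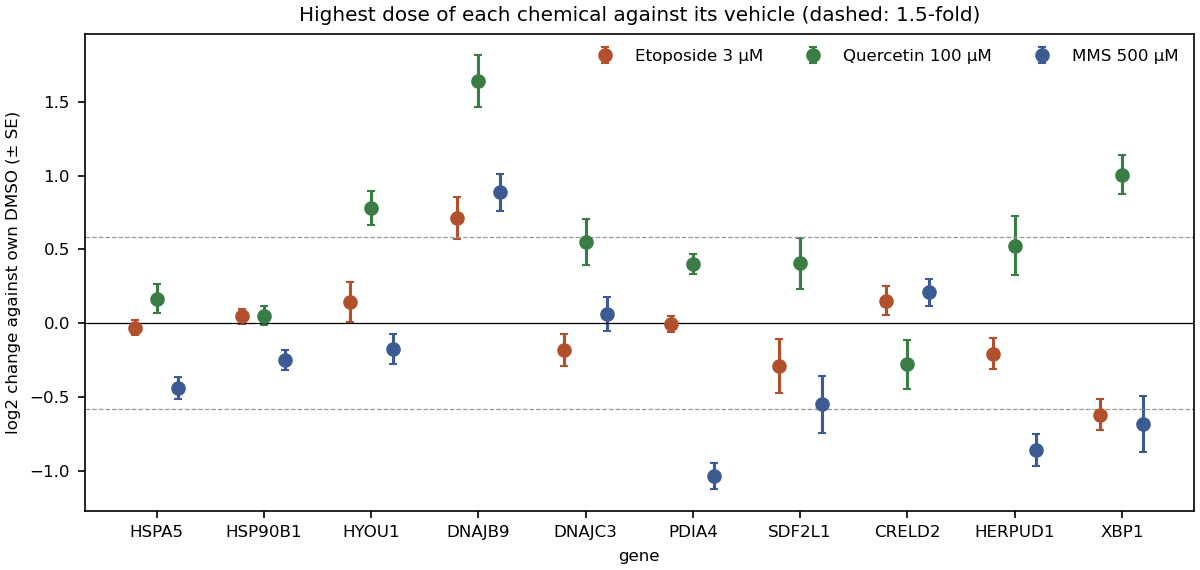
Log2 change ± SE against own DMSO of the 10 genes at etoposide 3 µM, quercetin 100 µM and MMS 500 µM; dashed lines mark 1.5-fold. DNAJB9 is above 0 under all 3 chemicals (0.71, 1.64 and 0.89), and XBP1 is above 0 under quercetin (1.01) and below 0 under etoposide and MMS (-0.62 and -0.69).

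The other genes of the pathway were read from lists of sensors, their targets and ER proteins. In the PERK and ATF4 arm (15 genes measured), 3 were higher and 2 lower at ETP 3 µM, 9 higher and 1 lower at QUE 100 µM, and 6 higher and 2 lower at MMS 500 µM. The list's median changes were -0.132, 0.860 and 0.602, against 0.008, 0.002 and 0.054 over all genes. ATF3, a stress-induced transcription factor, rose by 3.07 ± 0.23 at ETP 3 µM, 3.00 ± 0.25 at QUE 100 µM and 3.48 ± 0.25 at MMS 500 µM. PPP1R15A (GADD34), which restores translation, rose by 2.35 at QUE 100 µM and 1.98 at MMS 500 µM, and differed by 0.18 at ETP 3 µM. DDIT3 (CHOP), the pro-apoptotic factor downstream of ATF4, rose by 1.29 ± 0.33 at QUE 100 µM (adjusted p = 0.00145) and was not called at MMS 500 µM (0.71, adjusted p = 0.102) or ETP 3 µM (0.52, adjusted p = 0.0756). ATF4 itself rose by 0.74 at QUE 100 µM and 0.66 at MMS 500 µM. Under ETP 3 µM its difference was -0.52 (adjusted p = 0.00226, under 1.5-fold). At lower ETP doses ATF4 was called lower, by 0.61 at 0.3 µM (adjusted p = 0.00118 in limma) and by 0.63 at 1 µM (adjusted p = 4.44e-04). Its arrays overlapped the vehicle at both doses.

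Other genes of this arm moved in both directions. ASNS, asparagine synthetase, fell by 1.26 at ETP 3 µM. SESN2, a sestrin, rose by 0.92 at ETP 3 µM and 1.65 at QUE 100 µM. NUPR1, a stress-response nuclear protein, rose by 0.78 at ETP 3 µM and 1.63 at QUE 100 µM, where its vehicle mean of 3.88 was under 4 and the size is uncertain. At MMS 500 µM, DDIT4 (REDD1), an inhibitor of mTORC1, fell by 2.88, and VLDLR, the very low density lipoprotein receptor, fell by 2.81.

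The sensors did not move together. ERN1 (IRE1) rose by 2.29 ± 0.30 at QUE 100 µM (adjusted p = 8.53e-08 in limma) and by 1.33 ± 0.23 at MMS 500 µM (adjusted p = 3.61e-06). It also rose under ETP 3 µM, by 0.80 ± 0.22 (adjusted p = 0.00390). EIF2AK3 (PERK) rose by 1.71 ± 0.23 at QUE 100 µM (adjusted p = 1.42e-07) and fell by 1.24 at MMS 500 µM (SE 0.14, adjusted p = 3.23e-10), with -0.18 at ETP 3 µM (adjusted p = 0.266). ATF6 fell by 0.67 at QUE 100 µM (SE 0.17, adjusted p = 0.00165) and differed by -0.43 at MMS 500 µM (under 1.5-fold) and -0.21 at ETP 3 µM (adjusted p = 0.118). In the list of 13 sensors and transcription factors, 1 was higher and 1 lower at ETP 3 µM, 3 and 3 at QUE 100 µM, and 2 and 4 at MMS 500 µM. CREB3L2, an ER-tethered transcription factor, fell by 0.62 at ETP 3 µM and 1.51 at MMS 500 µM. CREB3 rose by 0.77 at QUE 100 µM and 0.86 at MMS 500 µM, and NFYB, a subunit of the factor that binds the CCAAT letters of ERSE, fell by 0.84 at QUE 100 µM.

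Of 16 genes of ER-associated degradation, which returns misfolded proteins to the cytosol, 6 were higher and 0 lower at QUE 100 µM, 3 higher and 1 lower at MMS 500 µM, and 0 higher and 1 lower at ETP 3 µM. The rises under QUE 100 µM included SELENOS (1.33 ± 0.16), the ubiquitin ligase SYVN1 (1.12 ± 0.22), DERL1 (1.07 ± 0.09) and DERL2 (0.75 ± 0.12). At MMS 500 µM, NPLOC4 (0.85), DERL2 (0.65) and the segregase VCP (0.65) rose and the mannosidase EDEM3 fell by 0.70. UBE2J1, an ER ubiquitin-conjugating enzyme, fell by 0.64 at ETP 3 µM. Of 20 other ER chaperones and folding enzymes, 5 were higher at QUE 100 µM and 0 lower, 2 higher and 2 lower at MMS 500 µM, and 0 changed at ETP 3 µM (list medians 0.268, -0.319 and 0.107). POFUT2 (0.87), the oxidase ERO1B (0.83), the co-chaperone DNAJB11 (0.70) and the prolyl isomerase FKBP14 (0.70) rose at QUE 100 µM. At MMS 500 µM, PDIA5 fell by 1.11 and ERO1A fell by 1.03, while SDF2 (0.90) and ERO1B (0.74) rose.

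Among 19 genes of ER entry and retrieval, 7 were higher and 0 lower at QUE 100 µM, 4 higher and 2 lower at MMS 500 µM, and 1 higher at ETP 3 µM. SSR3, a translocon-associated subunit, rose by 0.93 at QUE 100 µM, SEC24D, a COPII coat subunit, rose by 0.85, and the channel subunit SEC61A1 rose by 0.86 at QUE 100 µM and by 0.61 at ETP 3 µM. KDELR3, a receptor that returns chaperones to the ER, rose by 0.89 at QUE 100 µM and fell by 1.64 at MMS 500 µM. SEC24D fell by 0.95 at MMS 500 µM, where SEC11C (1.11) and SEC62 (0.81) rose. Housekeeping genes moved too: of 9, HPRT1 fell by 0.79 at QUE 100 µM, and at MMS 500 µM HPRT1 fell by 1.02, PGK1 fell by 0.83 and TBP rose by 0.61. The background for these counts is the 6.25% higher and 6.92% lower of all genes at ETP 3 µM, 13.1% and 14.5% at QUE 100 µM, and 17.7% and 16.9% at MMS 500 µM.

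With the number 2 arrays included, 6 of the 8 pathway and housekeeping genes named as called at ETP 3 µM were still called, and 22 of 24 at QUE 100 µM. The calls lost were ASNS (-1.02, adjusted p = 0.177 in limma) and NUPR1 (0.64, adjusted p = 0.128) at ETP 3 µM, and ATF4 (0.45, adjusted p = 0.0872) and ATF6 (-0.58, adjusted p = 0.00701, under 1.5-fold) at QUE 100 µM. ATF3 then changed by 2.99 at ETP 3 µM and 3.03 at QUE 100 µM. ERN1 changed by 1.05 at ETP 3 µM and 1.98 at QUE 100 µM, and EIF2AK3 by 0.15 (adjusted p = 0.691) at ETP 3 µM and 1.40 at QUE 100 µM. In the PERK and ATF4 arm 2 genes were then higher and 0 lower at ETP 3 µM, and 7 higher and 0 lower at QUE 100 µM. Of all genes, 11.6% were called at ETP 3 µM and 22.5% at QUE 100 µM in these fits.

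Over the 21 dose-minus-vehicle changes, the genes with a pattern most like that of HSPA5 among 4804 genes with a span of at least 1 on the log2 scale were MIR100HG (Pearson r = 0.928), COL6A1 (0.921), TMEM45A (0.918), SLC1A1 (0.912) and TMEM231 (0.911). The points share the vehicle arrays of each chemical, so this is a description without a test. COL6A1, a collagen VI chain, fell by 0.90 at MMS 300 µM and by 0.81 at 500 µM. TMEM45A fell by 2.31 at MMS 300 µM and by 2.88 at 500 µM. Its means there, 3.985 and 3.413, were under 4, so the size is uncertain. Under quercetin, where HSPA5 was not called, TMEM45A was called higher from 10 µM (1.24) to 100 µM (1.14). SLC1A1 was called higher at QUE 10 µM (0.92), 30 µM (1.05), 60 µM (0.86) and 100 µM (0.66). At 80 µM it was not called (0.53, adjusted p = 0.0546 in limma). Its means at MMS 300 and 500 µM, 3.279 and 3.161, were under 4, so the size of its falls there is uncertain. MIR100HG, COL6A1 and TMEM231 were called at no quercetin dose.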

How the data were processed

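The authors deposited log2 probe set summaries, made with GCRMA in Partek per the submitters' processing notes; versions and a genome build are not given in the sources used here. Labels follow a 3′ in vitro transcription kit per the labels' protocols. Of 54613 probe sets, 40914 had 1 platform symbol, 864 several and 12835 none, and 40858 matched RefSeq gene IDs with equal symbols. Probe sets with a log2 value of at least 4 in at least 5 arrays were kept (27102) and collapsed to 12070 genes. XBP1's other probe set failed this filter. The sequences are from RefSeq (GRCh38.p14).

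Groups and numbers came from the titles. ETP and QUE arrays numbered 2 (16) were left out, and 3 repeated numbers (1 of them among the arrays left out) were averaged, which left 127 replicates. The members and lists were chosen with earlier results of these data known. Each chemical's 8 groups were fitted in limma 3.58.1 (lmFit, eBayes with trend; R 4.3.3), chemicals were compared in 1 fit of 24 groups, and p-values were adjusted by Benjamini-Hochberg over all genes. Genes from the lists were named by a rule: up to 4 called with the largest change at each highest dose, and always DDIT3, ATF4, ERN1, EIF2AK3 and ATF6. The fits were tested on simulated data. Figures used matplotlib 3.10.9. No read depth exists for arrays, and their number limits the precision.

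Same-numbered dosed and vehicle arrays deviated alike from their group means, with every pair's correlation above 0.1 at all ETP doses, QUE 1 to 30 µM and MMS 1 to 300 µM, but not at QUE 60 to 100 µM (lowest 0.062) or MMS 500 µM (lowest -0.012). A fit with the number as a block was an alternative. Other alternatives were the number 2 arrays included, no filter, the mean of a gene's probe sets, quantile normalization over all arrays, 12 titles with -nf or -o left out (their meaning is not given), no trend, fits of only the compared groups, no limit on the fold, and each replicate left out.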

Additional observations from a re-analysis of the deposited data

Results flagged for a closer look

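Of 240 pairs of a gene and a group (10 genes in 24 groups) tested for a sample far from the others, 14 had a single array apart, and chance alone gives about 1 in 20. In 9 of these the array was replicate 3 of ETP or QUE. At QUE 3 µM, replicate 3 was highest for HSPA5 (12.67, next 12.35), HYOU1 (8.55, next 8.24) and CRELD2 (10.23, next 9.82). Replicate 3 was also highest for DNAJB9 at QUE 30 µM (10.46, next 10.00), and for HERPUD1 at QUE 10 µM (10.07, next 9.77) and QUE 100 µM (11.09, next 9.82). In the ETP experiment replicate 3 was highest for HSPA5 at 0.01 µM (12.55, next 12.47), PDIA4 at 0.003 µM (11.01, next 10.80) and XBP1 at 3 µM (8.81, next 8.53). PDIA4 stood at 11.27 in QUE 60 µM replicate 4 (next 11.07). In the MMS experiment DNAJB9 was lowest in 500 µM replicate 3 (8.50, next 9.06), SDF2L1 in DMSO replicate 5 (6.11, next 6.96) and 3 µM replicate 5 (6.23, next 6.85), and CRELD2 in DMSO replicate 5 (8.77, next 9.14).

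Of 30 tested differences in response between chemicals at their highest doses, those called in limma are listed here. The shares of all genes called are given above with each comparison. For ETP 3 µM minus QUE 100 µM these were DNAJB9 (-0.93), DNAJC3 (-0.73), HERPUD1 (-0.73), HYOU1 (-0.64), SDF2L1 (-0.70) and XBP1 (-1.63). With the number 2 arrays included, none of the members was called in this comparison. For ETP 3 µM minus MMS 500 µM these were HERPUD1 (0.66) and PDIA4 (1.03). For MMS 500 µM minus QUE 100 µM these were DNAJB9 (-0.75), HERPUD1 (-1.39), HSPA5 (-0.60), HYOU1 (-0.96), PDIA4 (-1.44), SDF2L1 (-0.96) and XBP1 (-1.69). Here DNAJB9 and HSPA5 were not called once the number 2 arrays were included.

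The number 2 arrays at the highest doses, outside the comparisons, exceeded every vehicle array of their own chemical for 8 members' values. In the library labelled ETP 3 µM number 2 these were DNAJB9 (10.85, highest vehicle array 9.07), XBP1 (10.23, 9.46), DNAJC3 (9.69, 9.29), HYOU1 (9.305, 8.48), PDIA4 (11.18, 10.94) and HERPUD1 (9.97, 9.77). In the library labelled QUE 100 µM number 2 these were DNAJB9 (9.64, 9.11) and CRELD2 (9.90, 9.84).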

How the results depend on the processing

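No called change of a member reversed. Of 45 called member results, 36 were called in every fit that left out a replicate; of 620 such values 600 kept their call and 20 did not. Of the alternatives, including the number 2 arrays lost the most calls, 16 of 45. The members called, with the share of all genes called in the same fit, became 0 at ETP 1 µM (6.8%), 1 at ETP 3 µM (11.6%), 0 at QUE 10 µM (0.199%), 2 at QUE 30 µM (11.0%), 1 between QUE 100 and 10 µM (16.0%), 0 for ETP minus QUE (0.00829%) and 5 for MMS minus QUE (24.7%). With no limit on the fold, members and shares of all genes were 2 at ETP 0.1 µM (14.0%), 4 at ETP 0.3 µM (19.7%), 5 at ETP 1 µM (32.2%), 1 between ETP 3 and 0.3 µM (14.1%), 5 at QUE 10 µM (3.9%), 5 at QUE 80 µM (46.4%), 7 at QUE 100 µM (50.4%), 2 at MMS 100 µM (4.08%), 7 at MMS 300 µM (36.5%), 7 at MMS 500 µM (61.2%), 6 between MMS 500 and 300 µM (45.4%), and 4 for ETP minus MMS (45.9%). Leaving out titles with -nf or -o gave 1 at ETP 0.3 µM and lost 3 of 45 calls. No filter and the mean of probe sets each lost 1 and quantile normalization over all arrays lost 2. The fit without trend, and the fit of only the compared groups, which was not run between chemicals, lost 0. The replicate block changed no member's call, with 3 members at QUE 100 µM and 4 at MMS 500 µM as without it. Leaving out a replicate gave 0 to 1 members at ETP 0.3 µM, 1 to 2 at ETP 3 µM, 1 to 2 between QUE 100 and 10 µM, 0 to 2 at MMS 100 µM, 1 to 2 between MMS 500 and 300 µM, and 1 to 2 for ETP minus MMS. The cause of these moves was not tested.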
